A study of Mus musculus with 18 samples.

Results

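The 47 genes described here are a listed set of mitosis and G2/M genes, whose products bring a cell from G2 through mitosis to cytokinesis. They were taken by name, by a rule that sets no threshold on a measured value, and all 47 were found among the 35275 genes of the deposited expression table. The study measured polyadenylated RNA in 18 libraries of C2C12 cells, an established mouse myoblast line. It asked how parts of the long noncoding RNA MUNC, encoded next to the myogenic factor gene Myod1, act on other muscle factors. The 3 lines were controls, labelled wild-type, a line that overexpresses the spliced form of MUNC (here the spliced line) and one that overexpresses its genomic form (the genomic line). Each line was sampled in growth medium with 20% fetal bovine serum at about 80% confluence (GM) and after 3 days of differentiation in 2% horse serum (DM3), with 3 biological replicates in each of the 6 groups. All groups, controls included, were grown from C2C12 cells described as PAX7-negative. How overexpression was achieved, and whether a line was 1 clone or a pool, is not given in the sources used here. Levels are the deposited FPM values, read counts scaled for the depth of each library. They are not divided by gene length, so they were compared between libraries and not between genes.

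Entry into mitosis depends on the kinase Cdk1 bound to B-type cyclins, which Cdc25 phosphatases switch on. Genes of this group are transcribed as a cell nears mitosis, under the factors B-Myb (Mybl2) and FoxM1 and the MuvB core, which binds a promoter element called the CHR. In cells that leave the cycle, the same core joins the DREAM complex and represses these genes through the same element. Myoblasts withdraw from the cycle as they differentiate, and the RNA of these genes is commonly read as a sign of the cells that still divide.

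Promoter sequence was examined because genes of this group are known for shared promoter elements. RefSeq windows of GRCm38.p6, from 250 bases before to 50 after the transcription start, were matched for 38 of the 47 members, 2 of which had 2 starts. The CHR was searched as TTTGAA and TTCGAA on both strands (TTTGAA also as TTCAAA), and the CCAAT box, bound by NF-Y, as CCAAT or ATTGG. Positions are of a motif's first base on the transcribed strand, counted from the start, and a base could count toward both motifs. A CHR lay in the window of 28 members, 73.7% of those matched, against 21.7% of 27025 genes with a window. Within 50 bases of the start, 25 members had a CHR, or 65.8%, against 6.12% of all genes. CCAAT boxes were in 28 member windows, or 73.7%, against 41.1% of all. A match is a description of letters and does not show that a factor bound there.

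The 200 bases before the start are shown for 1 gene in each of the 6 roles where a member carried a CHR wholly before its start. Each is written in the direction of transcription, and capitals mark CHR motifs and CCAAT boxes.
Cdk1, chr10:69352913-69353112, minus strand: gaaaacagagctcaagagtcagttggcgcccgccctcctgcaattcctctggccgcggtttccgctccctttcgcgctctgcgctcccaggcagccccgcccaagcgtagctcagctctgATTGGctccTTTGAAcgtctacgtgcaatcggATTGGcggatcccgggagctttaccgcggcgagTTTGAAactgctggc
Bub1b, chr2:118598011-118598210, plus strand: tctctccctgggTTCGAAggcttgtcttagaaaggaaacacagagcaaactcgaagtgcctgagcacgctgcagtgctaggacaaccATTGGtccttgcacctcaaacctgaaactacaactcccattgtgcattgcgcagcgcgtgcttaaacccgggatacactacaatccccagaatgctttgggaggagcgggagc
Kif11, chr19:37376182-37376381, plus strand: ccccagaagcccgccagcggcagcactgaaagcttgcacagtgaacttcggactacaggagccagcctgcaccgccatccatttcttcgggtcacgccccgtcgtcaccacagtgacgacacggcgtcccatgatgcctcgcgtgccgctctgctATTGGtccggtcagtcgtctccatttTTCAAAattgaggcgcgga
Top2a, chr11:99024190-99024389, minus strand: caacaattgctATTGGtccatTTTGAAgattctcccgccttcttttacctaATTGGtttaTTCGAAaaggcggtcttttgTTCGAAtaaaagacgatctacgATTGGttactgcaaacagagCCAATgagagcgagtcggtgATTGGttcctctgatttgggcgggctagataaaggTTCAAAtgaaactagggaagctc
Cdc20, chr4:118437344-118437543, minus strand: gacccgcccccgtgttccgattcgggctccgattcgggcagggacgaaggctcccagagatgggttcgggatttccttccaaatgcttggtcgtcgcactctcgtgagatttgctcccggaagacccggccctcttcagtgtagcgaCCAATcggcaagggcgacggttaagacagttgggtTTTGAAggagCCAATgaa
Ect2, chr3:27153879-27154078, minus strand: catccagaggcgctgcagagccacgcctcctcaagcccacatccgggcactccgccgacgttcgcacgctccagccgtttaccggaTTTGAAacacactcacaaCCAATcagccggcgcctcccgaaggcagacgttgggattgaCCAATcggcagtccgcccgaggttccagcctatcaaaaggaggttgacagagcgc
In Cdk1, the mitotic kinase itself, CHR motifs began at positions -71 and -15 from the start, with CCAAT boxes at -80 and -48. Kif11, the motor that pushes spindle poles apart, and Cdc20, the activator of the anaphase-promoting complex, each had 1 CHR in this stretch, at -19 and -18. Top2a, which untangles sister chromatids, had 4. The motifs shown for Bub1b, a checkpoint kinase, and Ect2, a cytokinesis factor, lay farther out, at -188 and -114, and both genes had a further CHR after the start, at 40 and 39.

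**Figure D1:**
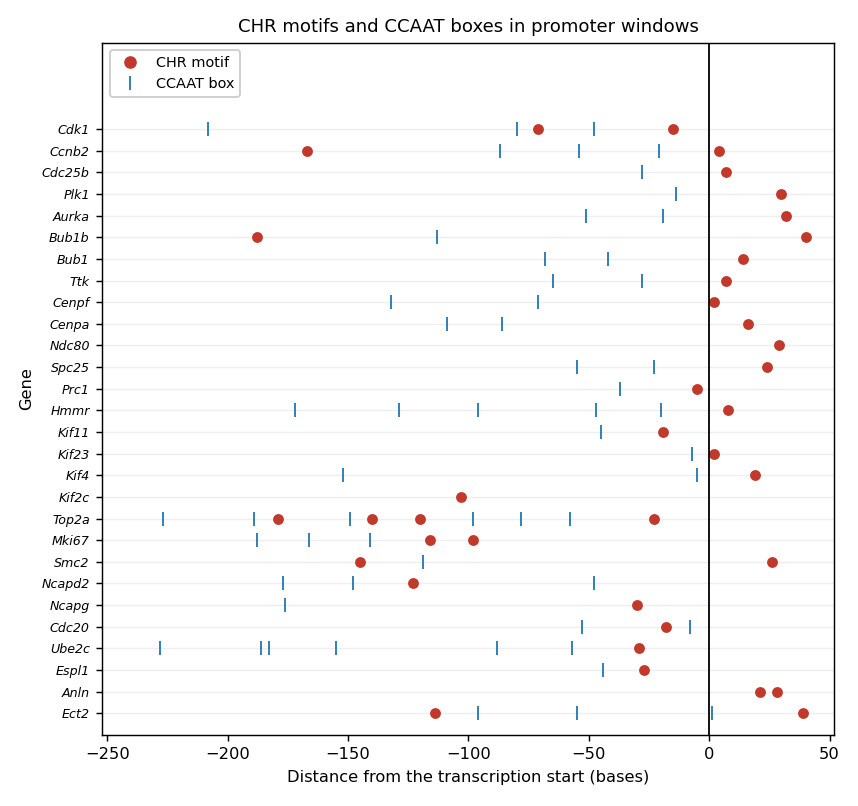
Positions of CHR motifs (circles) and CCAAT boxes (ticks) in the windows of the 28 members with a CHR, in bases from the transcription start, using the most upstream start of each gene. Most circles lie near the start: 25 of the 28 genes had a CHR within 50 bases of it.

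Library sums ran from 38416702 to 68788327 reads, so 3 reads corresponded to at most 0.0757 FPM, far below the members' levels. One library stood apart from the rest. Spliced DM3 replicate 1 had the lowest mean correlation with its own group over all tested genes (0.982), and its muscle markers differed from those of its 2 replicates. Myog, a myogenic regulator, was at 226 FPM there against 52.6 and 41.0, and the sum over 8 muscle markers was 744 FPM against 246 and 252. Dcn, a matrix gene of fibroblasts, was at 177 FPM there against 463 and 549.5. The other fibroblast markers did not all follow Dcn. Pdgfra was also lowest there, at 8.73 FPM against 11.8 and 13.96, as was Col3a1, at 9095 against 9677 and 9447. Col1a2 lay between its replicates, at 6847 FPM against 6345 and 7209. Col1a1 was at 4009 FPM there against 3400 and 3806, and the sum over 6 fibroblast markers was 20136 against 19897 and 21027. Most residual levels, fold changes and counts of called genes of the reported fit that use this library are followed by the value without it. Some changes of single genes, and counts from the other fits, are given only with it. Counts of groups that do not overlap use all libraries. The labelled cell types had uneven marker support. In control DM3, labelled as myotubes, Myog was at 0.192 to 0.434 FPM, embryonic myosin Myh3 at 0.375 to 0.497 and Ckm at most 0.0553. Myod1 was at 0 to 0.0854 FPM in control GM, and Pax7 was at most 0.147 FPM in any library. Myf5 and Des, of the same muscle list, were well above these levels. Myf5 was at 65.99 to 81.5 FPM in control GM and 95.04 to 109.9 in control DM3. Des was at 16.01 to 32.7 FPM in control GM and 64.2 to 92.02 in control DM3. The sample label for cell type conflicted with the title in 9 libraries, and the title was used. Among markers of other cells, the fibroblast collagens Col1a1, Col1a2 and Col3a1 were high in all 18 libraries while Thy1 was at most 0.0368 FPM. The fibroblast sum was 10645 to 12112 FPM in control DM3, 19897 to 21027 in spliced DM3 and 13653 to 15451 in genomic DM3. Endothelial markers summed to 7.10 to 7.36 FPM in genomic GM and 3.89 to 4.99 in genomic DM3, nearly all of it Cdh5, against at most 0.602 in the other groups, with Kdr at most 0.0252 throughout. Fat cell markers summed to at most 3.32 FPM, mostly Fabp4 with Adipoq at most 0.0505, blood markers to at most 5.42, mostly Cd68, and epithelial markers to at most 0.890. The part of these markers in the line differences was not tested.

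All 47 members fell from GM to DM3 in all 3 lines, by limma on log2(FPM + 1) at an adjusted p below 0.05. The share of all 13869 tested genes called lower was 28.6% in control, 18.4% in spliced and 25.1% in genomic cells. The median log2 change of the members was -2.91 in control, -2.30 in spliced and -3.04 in genomic cells, while that of all tested genes lay between -0.01 and 0.02. Without spliced DM3 replicate 1 all 47 still fell in spliced cells, against 19.0% of genes, and their median was -2.92. For every member the 3 DM3 libraries lay below the 3 GM libraries of the same line. Over all genes, libraries of the 2 media did not overlap for 62.4%, 44.6% and 62.8% in the same order. In RNA from whole cultures, fewer dividing cells and less of these RNAs per cell cannot be told apart. The authors' deposited table for control cells also called all 47 members lower, against 43.2% of its genes called in either direction. Adjusted p-values of the members by limma were at most 0.000698 in control, 0.00541 in spliced and 0.000102 in genomic cells.

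The depth of the fall differed among members. In control cells the 3 largest falls were of Mybl2 (-4.12, SE 0.37), Birc5 (-3.65, SE 0.44) and Aurkb (-3.59, SE 0.39), a transcription factor and 2 members of the chromosomal passenger complex. The smallest were of Cdc25b (-1.15, SE 0.14) and Pttg1 (-1.46, SE 0.30). In spliced cells Birc5 (-2.92), Cdc20 (-2.72) and Cenpa (-2.69) fell most and Smc4 (-1.30) least. Without DM3 replicate 1 the same 4 genes were at -3.68, -3.35, -3.34 and -1.71. In genomic cells Mybl2 (-3.91), Espl1 (-3.58) and Birc5 (-3.53) fell most, and Cdc25b (-1.98) and Smc4 (-2.01) least. SEs of single members ran from 0.14 to 0.46 in the shared fit.

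Cyclins and Cdk1 come first in the order of mitotic entry. Ccna2, cyclin A2, was at 334, 336 and 311 FPM in control GM, 215, 159 and 182 in spliced GM and 336, 286 and 338 in genomic GM. It was at 47.2, 23.8 and 33.7 FPM in control DM3, 102, 21.4 and 19.8 in spliced DM3 and 35.7, 25.9 and 29.8 in genomic DM3. Its spliced GM libraries all lay below the other GM libraries, and among DM3 libraries spliced replicate 1 was the highest. Cdk1 was at 254, 202 and 233 FPM in control GM, 246, 150.0 and 197 in spliced GM and 288, 237 and 294 in genomic GM. It was at 34.3, 20.6 and 23.6 FPM in control DM3, 93.2, 28.8 and 21.2 in spliced DM3 and 40.8, 30.2 and 32.9 in genomic DM3. Log2 changes from GM to DM3 were -3.24 in control, -2.35 in spliced (-3.10 without replicate 1 of DM3) and -3.36 in genomic cells for Ccna2, and -3.11 in control, -2.30 in spliced (-2.92 without replicate 1 of DM3) and -2.95 in genomic cells for Cdk1. The B-type cyclins Ccnb1 and Ccnb2 changed by -3.22 and -2.33 in control cells.

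Of the Cdc25 phosphatases, Cdc25b (ENSMUSG00000027330, chromosome 2, 131186949 to 131198497, GRCm38) had a pattern of its own. It was at 132, 157 and 151 FPM in control GM, 113, 96.4 and 117 in spliced GM and 79.0, 83.9 and 86.1 in genomic GM. It was at 65.0, 60.4 and 71.9 FPM in control DM3, 48.4, 29 and 33.1 in spliced DM3 and 19.5, 20.6 and 20.9 in genomic DM3. In both media the order of the lines was control, spliced, genomic, and no library of one line overlapped the next. Its level in DM3 was 44.8% of GM in control, 33.8% in spliced (28.5% without DM3 replicate 1) and 24.5% in genomic cells. The log2 changes of Cdc25c were -2.34 in control, -2.19 in spliced (-2.72 without replicate 1 of DM3) and -2.64 in genomic cells.

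Among the mitotic kinases, Plk1, which drives many steps of mitosis, was at 116, 125 and 129 FPM in control GM, 108, 81.2 and 99.9 in spliced GM and 136, 122 and 157 in genomic GM. It was at 22.7, 11.3 and 18.0 FPM in control DM3, 39.6, 9.04 and 9.78 in spliced DM3 and 12.4, 9.05 and 12.1 in genomic DM3. Nek2, a centrosome kinase, was at 104, 115 and 118 FPM in control GM, 107, 76.6 and 98.5 in spliced GM and 119, 109.7 and 143 in genomic GM. Control and genomic GM libraries overlapped for both kinases, and spliced GM libraries lay below genomic ones. Nek2 was at 22.7, 11.0 and 16.0 FPM in control DM3, 42.8, 11.1 and 12.3 in spliced DM3 and 16.2, 13.2 and 16.5 in genomic DM3. The log2 changes of Plk1 were -2.82 in control, -2.56 in spliced (-3.22 without replicate 1 of DM3) and -3.52 in genomic cells. Those of Aurka and Melk, kinases of the centrosome and of proliferating cells, were -3.10 and -3.43 in control cells.

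Both transcription factors of the group fell. Foxm1 was at 147, 164 and 202 FPM in control GM, 132, 94.5 and 135 in spliced GM and 175, 159 and 210.4 in genomic GM. It was at 27.4, 13.1 and 20.0 FPM in control DM3, 56.7, 14.4 and 16.3 in spliced DM3 and 20.3, 17.3 and 23.2 in genomic DM3. Control and genomic DM3 had the same mean, 20.2 ± 7.14 and 20.2 ± 2.94 FPM (SD, n = 3). Mybl2 (ENSMUSG00000017861, chromosome 2, 163054687 to 163084688) was at 49.4, 57.2 and 80.3 FPM in control GM, 26.2, 20.6 and 42.4 in spliced GM and 38.9, 34.0 and 61.2 in genomic GM. It was at 4.30, 1.74 and 2.14 FPM in control DM3, 10.3, 3.50 and 2.68 in spliced DM3 and 2.04, 2.05 and 1.76 in genomic DM3. Its residual level, DM3 over the GM mean of the same line, was 4.38% in control and 4.36% in genomic cells, the lowest of the 47 members in both lines, and 18.4% in spliced cells. In spliced cells it was 10.4% without DM3 replicate 1.

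Spindle checkpoint genes hold anaphase until chromosomes are attached. Bub1b was at 189, 225 and 190.3 FPM in control GM, 160.0, 133 and 144 in spliced GM and 165, 155 and 149 in genomic GM. It was at 33.5, 16.9 and 26.6 FPM in control DM3, 66.6, 14.1 and 14.6 in spliced DM3 and 18.1, 16.0 and 16.4 in genomic DM3. Bub1, its partner kinase at the kinetochore, was at 183, 198 and 161 FPM in control GM, 150.1, 111 and 118 in spliced GM and 153, 134 and 138 in genomic GM. For both genes genomic DM3 libraries were close to each other and spliced DM3 replicate 1 stood above the rest. Bub1 was at 33.0, 15.7 and 19.0 FPM in control DM3, 68.1, 13.1 and 10.1 in spliced DM3 and 15.8, 13.7 and 14.8 in genomic DM3. The 4 checkpoint members had a median log2 change of -2.99 in control cells.

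Of the 7 kinetochore and centromere members, Cenpe, a kinetochore motor, was at 305, 336 and 292 FPM in control GM, 250.4, 177 and 184 in spliced GM and 307, 275 and 254 in genomic GM. It was at 62.3, 34.9 and 48.2 FPM in control DM3, 107, 22.5 and 31.3 in spliced DM3 and 33.1, 28.2 and 35.3 in genomic DM3. Cenpf was at 153, 205 and 156 FPM in control GM, 185, 155 and 142 in spliced GM and 220.4, 234 and 189 in genomic GM. Genomic GM was the higher of the 3 lines for Cenpf, with 1 control library above 1 genomic library. In DM3 it was at 42.5, 27.0 and 36.0 FPM in control, 87.3, 18.7 and 24.3 in spliced and 29.1, 23.4 and 34.1 in genomic cells. The role's control log2 changes ran from -3.48 (Nuf2, of the Ndc80 complex) to -2.27 (Cenpf).

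The chromosomal passenger complex corrects attachments and guides cytokinesis. Its scaffold Incenp was at 169.8, 201 and 213 FPM in control GM, 159, 119.6 and 159 in spliced GM and 191, 193 and 223 in genomic GM. It was at 31.0, 22.3 and 26.5 FPM in control DM3, 69.0, 23.5 and 24.1 in spliced DM3 and 26.3, 26.3 and 31.6 in genomic DM3. Birc5, survivin, was at 199, 147 and 191 FPM in control GM, 131, 85.8 and 114 in spliced GM and 137, 116 and 156 in genomic GM. Birc5 was lower in spliced than in control GM in every library, a difference of -0.70 log2 units that did not pass the test (adjusted p = 0.232, limma). In DM3 it was at 20.3, 7.97 and 14.2 FPM in control, 40.3, 8.03 and 7.16 in spliced and 11.8, 9.47 and 11.2 in genomic cells. Spliced DM3 replicates 2 and 3 lay within or just below the control range.

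Among the 8 kinesins and spindle proteins, Tpx2, the spindle activator of Aurora A, was at 269.6, 314 and 289 FPM in control GM, 251, 177 and 213 in spliced GM and 232, 221 and 236 in genomic GM. It was at 57.6, 32.7 and 45.9 FPM in control DM3, 110.0, 28.1 and 35.3 in spliced DM3 and 30.8, 26.8 and 29.1 in genomic DM3. Prc1, which bundles midzone microtubules, was at 226, 269.9 and 259 FPM in control GM, 233, 179.7 and 201 in spliced GM and 274, 255 and 289 in genomic GM. All 3 genomic DM3 libraries of Tpx2 lay below all 3 control DM3 libraries, whereas those of Prc1 overlapped. Prc1 was at 42.6, 26.1 and 31.3 FPM in control DM3, 112, 26.3 and 25.7 in spliced DM3 and 41.9, 33.7 and 34.5 in genomic DM3.

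The 7 condensin and chromosome structure members included Top2a, at 1076, 1451 and 1100.5 FPM in control GM, 969, 788 and 721 in spliced GM and 1040.3, 1026 and 922 in genomic GM. It was at 183, 93.9 and 118 FPM in control DM3, 455, 97.3 and 97.3 in spliced DM3 and 138, 108 and 129.5 in genomic DM3. Smc4, a core condensin subunit, was at 901, 811 and 595 FPM in control GM, 456, 335 and 319 in spliced GM and 717, 613 and 572 in genomic GM. All spliced GM libraries of Smc4 lay below all other GM libraries, while in DM3 the 3 lines overlapped. Smc4 was at 209, 145 and 129 FPM in control DM3, 264, 117 and 105 in spliced DM3 and 184, 156 and 132 in genomic DM3. Its residual level was among the highest of the set in all lines, 21.0%, 43.7% and 24.9% in control, spliced and genomic cells, and 30.0% in spliced cells without DM3 replicate 1.

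Of the anaphase-promoting complex and separation genes, Cdc20 was at 237, 190.1 and 239.9 FPM in control GM, 241, 158 and 227 in spliced GM and 157, 137 and 181 in genomic GM. It was at 35.9, 20.4 and 33.2 FPM in control DM3, 74.3, 19.3 and 19.1 in spliced DM3 and 13.9, 10.3 and 14.3 in genomic DM3. Ube2c, the ubiquitin-conjugating enzyme of this complex, was at 194, 172 and 178 FPM in control GM, 119, 83.5 and 91.9 in spliced GM and 111, 103 and 119 in genomic GM. For both genes the genomic DM3 libraries lay wholly below the control DM3 libraries. Ube2c was at 28.7, 15.4 and 20.6 FPM in control DM3, 48.8, 8.17 and 9.31 in spliced DM3 and 14.4, 11.5 and 12.2 in genomic DM3. Pttg1, securin (ENSMUSG00000020415, chromosome 11, 43420250 to 43426251), was at 102, 87.9 and 71.1 FPM in control GM, 71.4, 49.8 and 66.3 in spliced GM and 92.2, 88.7 and 95.6 in genomic GM. In DM3 it was at 35, 25.5 and 32.5 FPM in control, 29.4, 8.28 and 10 in spliced and 12.7, 10.4 and 11.7 in genomic cells. Control cells thus kept 35.6% of their GM level of Pttg1, and genomic cells 12.6%. Anln, anillin of the cleavage furrow, was at 393, 479 and 409.8 FPM in control GM, 361, 268 and 308 in spliced GM and 417, 406 and 432 in genomic GM. It was at 83.2, 62.9 and 86.8 FPM in control DM3, 156, 35.8 and 35.3 in spliced DM3 and 61.3, 45.4 and 57.0 in genomic DM3.

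**Figure D2:**
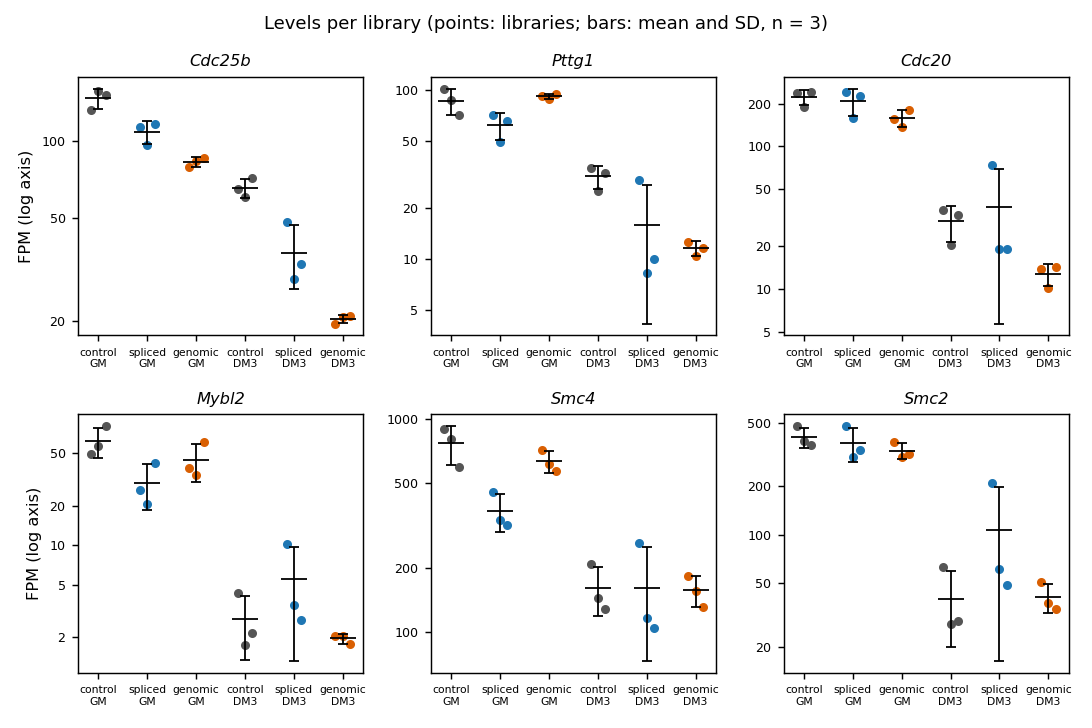
FPM on a log axis of 6 members in each library (points), by line and medium, with the mean and SD of 3 libraries (bars). Cdc25b steps down from control to spliced to genomic in both media, and spliced DM3 replicate 1 is the upper point of its group in every panel.

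The level left in DM3 was measured library by library, as a percentage of the mean GM level of the same line. The median over the 47 members was 18.3%, 9.11% and 12.4% in control replicates 1, 2 and 3, and 12.6%, 10.1% and 11.0% in genomic replicates 1, 2 and 3. In spliced cells it was 49.3% in replicate 1 and 11.8% in both other replicates. The 2 latter libraries thus lay between the lowest and highest control values, and replicate 1 stood far above all 8 other DM3 libraries. Using group means, the median residual level was 13.2% in control, 24.2% in spliced and 11.3% in genomic cells. Without spliced DM3 replicate 1 it was 11.9% in spliced cells.

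Spliced DM3 replicate 1 had the highest level of the 9 DM3 libraries for 45 of the 47 members, all but Cdc25b and Pttg1, which were higher in a control library. It was the highest of its own group for all 47. Over the mean of its 2 replicates it was 4.05-fold higher in the median member, from 1.56-fold for Cdc25b to 5.87-fold for Bub1. The same ratio was 2.26 in the median of 41 DNA replication genes and 0.981 over all tested genes. Its muscle markers were also raised, as given above, with Myh3 at 177 FPM against 24.2 and 37.9. Thus the library with the most mitotic RNA in DM3 was also the highest in Myog and Myh3 RNA. The part of muscle marker levels in this difference was not tested.

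Smaller steps between replicates were also shared across members. Control DM3 replicate 1 was the highest control library for 44 members and replicate 2 the lowest for 45. Genomic DM3 replicate 2 was the lowest of its group for 39. In GM, spliced replicate 2 was the lowest of all 9 libraries for 36 members. Within a group, the members therefore mostly moved up or down together from library to library, so they are not independent counts of a line's response.

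**Figure D3:**
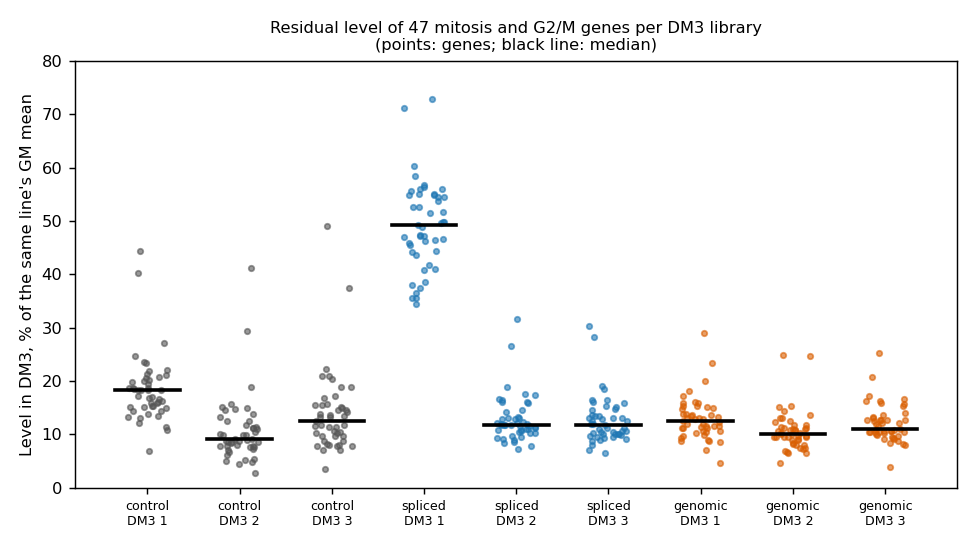
Residual level of each member (points) in each DM3 library, in percent of the GM mean of the same line, with the median over 47 members (black lines). Spliced replicate 1 has a median of 49.3%, and the other 8 libraries have medians from 9.11% to 18.3%.

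A few members stood off the general level of their line. In control cells 4 members kept more than 20% of their GM level, led by Cdc25b (44.8%), Pttg1 (35.6%) and Smc4 (21.0%), with Cenpf at 20.5%. In genomic cells only Smc4 (24.9%) and Cdc25b (24.5%) did so. In spliced cells 40 members did with all libraries, and 2, the same pair, without DM3 replicate 1. Birc5 was the lowest in spliced cells, at 16.7% with that library and 6.88% without it. Members with a CHR within 50 bases of the start had a median control residual level of 13.2% (25 genes), and matched members without one 12.5% (13 genes). The same medians were 24.5% and 23.5% in spliced cells with all libraries, and 10.9% and 11.3% in genomic cells. These differences were not tested.

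**Figure D4:**
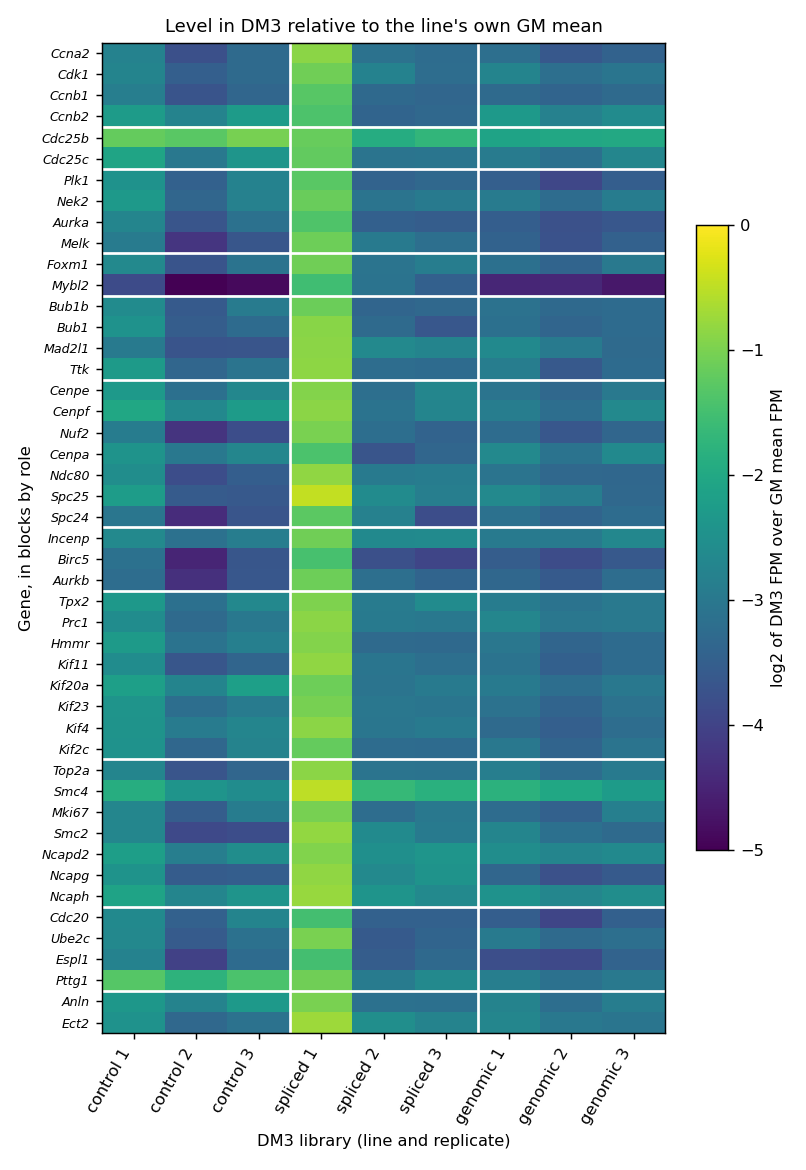
Log2 of each member's DM3 level over the GM mean of the same line (colour), one row per gene in blocks by role and one column per DM3 library. The spliced replicate 1 column is the lightest for all members but Cdc25b, Cdc25b and Pttg1 are light in the control columns, and Mybl2 is darkest in control and genomic columns.

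The question whether the lines differ in DM3 was addressed by comparing their DM3 libraries directly. With all 3 spliced libraries, 3 members were higher in spliced than in control DM3 and 2 lower. Over all tested genes 43.3% were called, 22.3% higher and 21.0% lower. The median member difference was 0.08 log2 units, against 0.01 for all tested genes. Libraries of the 2 groups did not overlap for 1 member, Cdc25b, against 53.0% of all tested genes.

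The higher members were Smc2, a condensin subunit, Nuf2 and Melk. Smc2 (ENSMUSG00000028312, chromosome 4, 52439243 to 52488260) was at 62.4, 27.5 and 29 FPM in control DM3, 211, 61.0 and 48.4 in spliced DM3 and 50.5, 37.6 and 34.5 in genomic DM3. Spliced over control it differed by 1.20 log2 units (SE 0.41, limma adjusted p = 0.0254), with spliced replicates 2 and 3 below the highest control library. Nuf2 was at 13.0, 5.07 and 6.85 FPM in control, 50.7, 11.2 and 9.56 in spliced and 12.1, 9.07 and 11.1 in genomic DM3. Melk was at 12.3, 4.95 and 7.33 FPM in control, 41.6, 11.6 and 9.84 in spliced and 7.38, 5.90 and 7.30 in genomic DM3. For both, replicates 2 and 3 of the spliced group lay within the control range. Nuf2 was 1.11 log2 units higher (SE 0.43, limma adjusted p = 0.0465). Melk was 1.05 higher (SE 0.37, limma adjusted p = 0.0315).

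The 2 lower members were Pttg1 and Cdc25b, whose library values stand above. The difference of Pttg1 was -1.12 log2 units (SE 0.30, limma adjusted p = 0.00725), with spliced replicate 1 inside the control range. That of Cdc25b was -0.85 (SE 0.14, limma adjusted p = 0.000188), with all 3 spliced libraries below all 3 control libraries.

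Without spliced DM3 replicate 1 the comparison turned. By limma no member was higher and 23 were lower in spliced than in control DM3, with 38.2% of 13813 tested genes called and 18.8% called lower. The median member difference was -0.53 log2 units. Smc2, Nuf2 and Melk were then at 0.55 (adjusted p = 0.141), 0.38 (adjusted p = 0.276) and 0.42 (adjusted p = 0.17) by limma. The 3 largest differences were of Pttg1 (-1.65), Ccnb2 (-1.21) and Ube2c (-1.17). Cdc25b and Pttg1 were lower with and without that library. With all libraries of the 2 groups, and these groups alone in the fit, Cdc25b was the 1 member called, against 40.4% of genes. A fit with all libraries and the replicate number as a block called 8 members, 6 higher and 2 lower, against 53.3% of all genes, and added Ndc80, Spc25 and Ncapg to the higher ones. The authors' deposited table for this comparison called 2 members lower and none higher at an adjusted p below 0.05, against 33.1% of its genes.

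**Figure D5:**
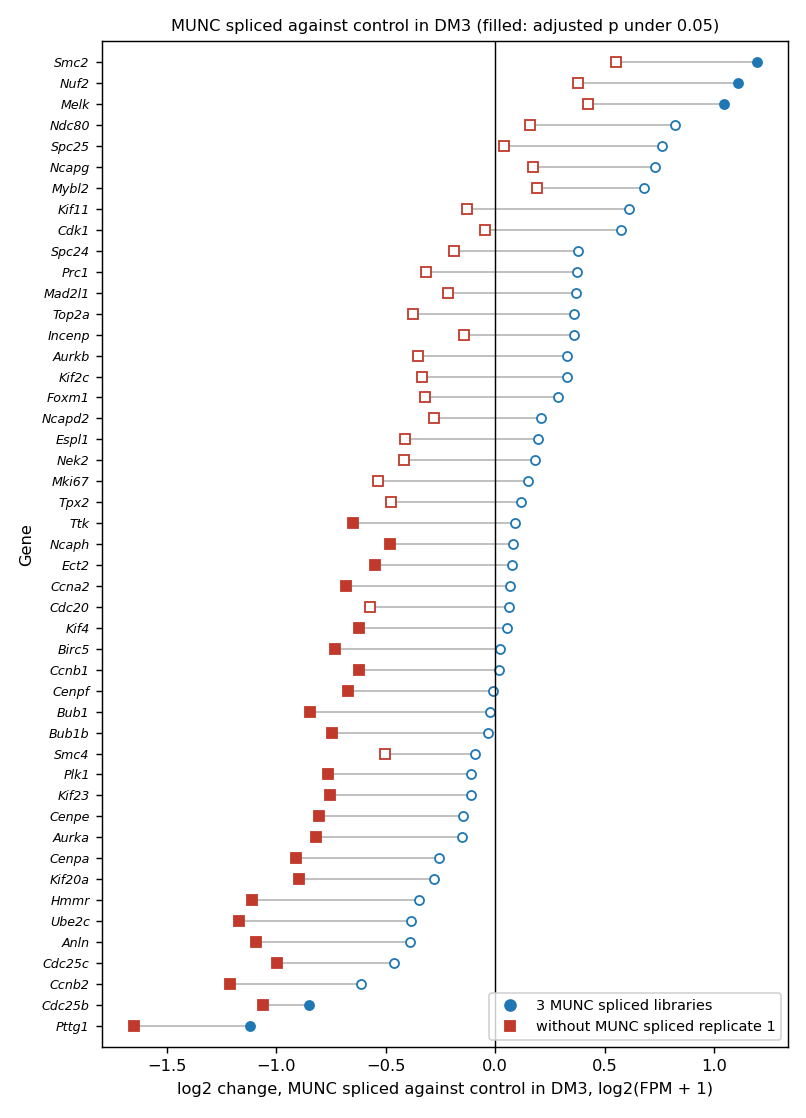
Log2 difference of each member between spliced and control DM3, on log2(FPM + 1), with all 3 spliced libraries (circles) and without spliced replicate 1 (squares). Filled symbols passed the test, and every member moved to the left without that library, from a median of 0.08 to one of -0.53.

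Between genomic and control DM3, 4 members were lower and none higher, against 40.3% of all tested genes called and 20.9% called lower. They were Cdc25b (-1.64, SE 0.14, limma adjusted p = 1.25e-07), Pttg1 (-1.33, SE 0.30, adjusted p = 0.00229), Cdc20 (-1.13, SE 0.37, adjusted p = 0.0229) and Kif20a (-0.88, SE 0.34, adjusted p = 0.0498). Kif20a, a kinesin of the central spindle, was at 37.6, 25.4 and 37.8 FPM in control DM3, 64.7, 16.5 and 18.2 in spliced DM3 and 18.6, 15.8 and 18.1 in genomic DM3. All 3 genomic libraries of these 4 genes lay below all 3 control libraries. Groups did not overlap for 12 members, all lower in genomic cells, against 56.9% of all genes. The median member difference was -0.20 log2 units, and 37 of 47 were negative.

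The spread used for this test was estimated over all 6 groups, so spliced DM3 replicate 1 enters it. With that library left out the median SE of the members went from 0.37 to 0.19 log2 units, 18 members were lower and 1, Spc24 of the Ndc80 complex, higher (0.59, limma adjusted p = 0.0373), against 42.1% of genes called and 22% called lower. With control and genomic DM3 alone in the fit, 12 members were called, against 49.2% of genes. The authors' deposited table called 18 members lower and none higher, against 39.3% of its genes. The replicate block called 6, adding Cdc25c and Aurka, against 50.5%. The log2 differences of the members were the same in these limma fits.

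Spliced against genomic DM3 had 6 members higher and none lower, against 44.2% of all genes called and 23.4% called higher. Ncapg, a condensin subunit, was at 65.8, 18.7 and 21.5 FPM in spliced and 13.6, 10.3 and 11.6 in genomic DM3, a difference of 1.28 (SE 0.35, limma adjusted p = 0.0071). By limma, Melk (1.20, SE 0.37, adjusted p = 0.0152) and Cdc20 (1.19, SE 0.37, adjusted p = 0.0158) followed, and Smc2, Mybl2 and Cdc25b completed the 6. Groups did not overlap for 7 members, all higher in spliced cells, against 57.2% of genes. Without spliced replicate 1, 2 members stayed higher, Ncapg (0.72) and Cdc25b (0.58), and 6 were lower, led by Ccnb2 (-1.04), against 39.5% of genes called, 20.8% higher and 18.8% lower. The median member difference was 0.38 with that library and -0.32 without it. On the recovered reads of all libraries edgeR called 11 members, against 43.6% of genes, and DESeq2 12, against 35.6%, all higher. With the 2 groups alone in the fit 2 were called, Cdc25b and Ncapg, against 45.9%.

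In growth medium, most members were at a lower level in spliced than in control cells, though few passed the test. The difference was negative for 45 of 47 members, with a median of -0.43 log2 units against -0.02 for all tested genes. Only 4 passed the test, all lower, against 35.5% of genes called and 17.3% called lower. They were Mybl2 (-1.07, SE 0.37, limma adjusted p = 0.0335), Smc4 (-1.05, SE 0.28, adjusted p = 0.00861), the checkpoint gene Mad2l1 (-0.97, SE 0.35, adjusted p = 0.0385) and Cdc25b (-0.43, SE 0.14, adjusted p = 0.0298). Mad2l1 was at 181, 163 and 152 FPM in control GM, 104, 71.2 and 78.1 in spliced GM and 155, 128 and 139.7 in genomic GM. All spliced libraries of these 4 genes lay below all control libraries. That held for 28 members in all, each lower in spliced cells, against 43.6% of genes.

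This count too moved with the libraries in the fit. Leaving out spliced DM3 replicate 1, 24 members were lower and none higher, against 37.7% of genes called and 18.7% called lower. With the 2 GM groups alone 18 were lower, against 26.7%. The authors' deposited table called 21 lower and none higher, against 25.3% of its genes. Spliced GM replicate 2, the lowest of the GM libraries for most members, also had the highest sum of fibroblast markers among GM libraries (22404 FPM against 6994 to 16148), and its part in the difference was not tested. When it was left out 1 member was called, as when control GM replicate 2 or 3 was.

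Genomic and control GM were closer. Only Cdc25b was lower in genomic cells (-0.81, SE 0.14, limma adjusted p = 0.000521) and none was higher, against 26.8% of genes called and 14.5% called lower. The median member difference was -0.16 log2 units against -0.03 for all tested genes. Groups did not overlap for 19 members, 15 lower and 4 higher in genomic cells, against 37.9% of genes. The authors' deposited table called 5 members lower and none higher, against 19.9% of its genes, and 6 were called with the 2 groups alone, against 19.7%. Leaving out spliced DM3 replicate 1, Ube2c was also lower (-0.70, limma adjusted p = 0.00712), against 28.4% of genes called and 15.4% called lower.

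Spliced against genomic GM had 2 members called, against 35.8% of genes, 19.9% higher and 16.0% lower. Cdc25b was higher in spliced cells (0.38, SE 0.14, limma adjusted p = 0.0473) and Smc4 lower (-0.79, SE 0.28, adjusted p = 0.0382). The difference was negative for 41 members, with a median of -0.40. Groups did not overlap for 24 members, 23 of them lower in spliced cells, against 45.7% of genes. Leaving out spliced DM3 replicate 1, 15 were lower and 1 higher, against 37.6% of genes called and 16.9% called lower, and with the 2 groups alone 19 were called, against 30.2%. The replicate block called 5, adding Mad2l1, Spc24 and Ncapd2, against 47%.

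Whether the fall from GM to DM3 differed between lines was tested by the interaction of line and medium. For spliced against control, Mybl2 alone was called, with a smaller fall in spliced cells (interaction 1.75, SE 0.53, limma adjusted p = 0.0361), against 14.4% of genes called and 7.43% called positive. The median over members was 0.58 log2 units, positive for 43 of 47. Without spliced DM3 replicate 1 the median was -0.03. By limma Mybl2 was then at 1.26 (adjusted p = 0.0739), and Pttg1 (-1.18, adjusted p = 0.00658), Ccnb2 (-0.82, adjusted p = 0.047) and Cdc25b (-0.63, adjusted p = 0.0183) fell more in spliced cells, against 10.1% of genes called and 5.05% called negative. With all libraries DESeq2 called 3, Mybl2, Mad2l1 and Smc2, against 15.5%. The limma fit with the replicate block called these 3 and also Smc4 and Ncapg, and its share of all genes is not given here. With only control and spliced libraries in the fit limma called none, against 9.05%.

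For genomic against control, Pttg1 (-1.43, SE 0.43, limma adjusted p = 0.049) and Cdc25b (-0.83, SE 0.20, adjusted p = 0.0172) fell more in genomic cells, against 8.81% of genes called and 5.25% called negative. The median over members was -0.14. Both were also called with control and genomic libraries alone in the fit, against 9.48%. The call of Pttg1 was lost when any single library of the 4 groups was left out, and that of Cdc25b was not lost under any alternative run. Between the falls of spliced and genomic cells limma called no member, against 10.5% of genes called. At an unadjusted p below 0.05 there were 2 members, and the share of all genes at that threshold is not given here. For that contrast edgeR on the recovered reads called 1, Ncapg (7.15% of genes), and DESeq2 2, Mybl2 and Ncapg (11.0%). Limma with the replicate block called Mybl2, Ncapg and Smc4 for that contrast, and its share of all genes is not given here. In the reported limma fit the median of that contrast over members was 0.76, positive for 46 of 47. It was 0.15 with no member called when spliced DM3 replicate 1 was left out (8.67% of genes). These comparisons share the control or spliced libraries, so they are not independent of one another.

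Other genes of the pathway fell as well. Of 101 further mitotic genes, 93 were lower and 1 higher in control DM3 than in GM, 89 and 1 in spliced cells and 89 and 2 in genomic cells by limma. Their median log2 changes were -2.23, -1.49 and -2.35, and -1.92 in spliced cells without DM3 replicate 1, with 89 lower and 1 higher. In control cells Trip13, a checkpoint ATPase, fell most (-3.65) and Anapc13, a subunit of the anaphase-promoting complex, rose most (0.32). In spliced against control GM, 14 of the 101 were lower and 3 higher, against 17.3% and 18.2% of all genes. In genomic against control DM3 12 were lower and 4 higher, against 20.9% and 19.3%. All 41 DNA replication genes were lower in DM3 in all 3 lines, with medians of -2.88, -1.46 and -2.57, and all 41 with a median of -1.81 in spliced cells without DM3 replicate 1.

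DNA replication genes, active in S phase, differed from the 47 members in the comparison of spliced and control DM3. In spliced against control DM3, 29 of 41 replication genes were higher and none lower, against 22.3% and 21.0% of all genes, with a median of 0.92 log2 units and Mcm5, of the replicative helicase, as the largest (1.94). Of the 101 further mitotic genes 23 were higher and 2 lower, with a median of 0.28, and without spliced replicate 1 the counts were 12 and 16, with a median of -0.05. With spliced replicate 1 left out, 17 of the 41 replication genes were higher and 3 lower, against 19.5% and 18.8% of all genes, with a median of 0.48, while 23 of the 47 mitotic members were lower and none higher. The median residual level of replication genes was 54.1%, 28.4% and 24.5% in spliced replicates 1, 2 and 3. It was 17.6%, 11.2% and 11.4% in control and 15.8%, 15.7% and 15.1% in genomic DM3. In spliced replicates 2 and 3 the replication genes kept more of their GM level than the mitotic members, whose median was 11.8% in both. The 101 further mitotic genes had medians of 24.2% and 20.1% there, nearer to those of the replication genes. In genomic DM3 the replication genes also lay above the members, whose medians were 12.6%, 10.1% and 11.0%. In control DM3 the members were at 18.3%, 9.11% and 12.4%, above the replication genes in replicates 1 and 3. Differences between the lists were not tested.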

How the data were processed

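RNA was measured in 18 libraries, 3 for each of 6 groups, with titles giving group and replicate. Per the submitters' processing notes STAR, HTSeq, DESeq2 and mm10 were used; roles, settings and strandedness are not given in the sources used here. The deposited signal is FPM per gene, although a label calls it FPKM. Within a library all values were multiples of the worth of 1 read (tolerance 0.05 reads), so reads were recovered, 38416702 to 68788327 per library. Per the file headers, 5 tables of the authors' own comparisons hold log2 fold changes, p-values and adjusted p-values, and 2 score columns, a mean normalized count and a test statistic, not used here.

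limma 3.58.1 (R 4.3.3, trend) was fitted to log2(FPM + 1) of all 18 libraries for the 13869 genes that reached 0.5 FPM in 3 or more libraries. It had 12 residual degrees of freedom for 12 comparisons, and Benjamini-Hochberg adjusted p below 0.05 was called. A residual level is DM3 over the GM mean of the same line, in percent. edgeR 4.0.16 and DESeq2 1.42.0 on recovered reads, another pseudocount (0.1) or no filter, FPM rescaled to equal sums, only the compared groups, a replicate block and omission of each library were alternatives. Fits were tested on a single simulated data set, where the share of false calls was slightly above the threshold for limma and edgeR and far above it for DESeq2. Few genes changed in it, its spread came from edgeR, and DESeq2 was run there on filtered genes only. It was thus unlike the data and does not rank the methods. The replicates are biological per the labels, which do not say what equal numbers share. Same-numbered libraries deviated together, with every correlation above 0.1 across genes, in 6 of 9 comparisons, control DM3 against GM and all line comparisons but spliced against genomic DM3. The correlations were strongest between lines in GM, at 0.456 to 0.727. For the 6 comparisons the fit with the block stands beside the result where it moved the count of members called by 1.5 times or more. The reported fit has no block, so its spread includes these shared deviations.

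The members and lists were chosen with earlier results of these data known. By a rule, 1 or 2 members per role are given library by library, with the 3 called members of largest change in each direction of each comparison. The members without a RefSeq promoter entry were Aurkb, Ccna2, Cdc25c, Foxm1, Incenp, Kif20a, Smc4, Spc24 and Tpx2.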

Additional observations from a re-analysis of the deposited data

Results flagged for a closer look

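The fall from GM to DM3 differed between lines for 3 members by the limma interaction test. Over all tested genes 14.4% were called for the spliced interaction and 8.81% for the genomic one. For Mybl2 the interaction of the spliced line was 1.75, a smaller fall than in control cells, and it was 1.26 (limma adjusted p = 0.0739) without spliced DM3 replicate 1. For Pttg1 the interaction of the genomic line was -1.43, and for Cdc25b it was -0.83, both larger falls than in control cells. The call of Pttg1 was lost when any single control or genomic library was left out, and that of Cdc25b was kept under every alternative run.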

How the results depend on the processing

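All 47 members fell in each line under every alternative run. The share of all genes called also moved with the setting. For spliced against genomic GM it was 35.8% in the reported fit, 30.2% with the compared groups alone and 47% with the replicate block. The counts below stand without these shares, so they describe the settings and are not results about the members. No named result reversed in 479 alternatives over 34 results; 377 kept their call and 102 lost it. When the fit held the compared groups alone, members called were 12 for genomic against control DM3 (4 in the report), 6 for genomic against control GM (1), 18 for spliced against control GM (4), 1 for spliced against control DM3 (5), 2 and 19 for spliced against genomic DM3 and GM (6 and 2), and 0 for the spliced interaction (1). Without the filter they were 2, 2, 1 and 0 for genomic and spliced against control DM3, spliced against control GM and spliced against genomic GM, 0 for the spliced and 1 for the genomic interaction. Pseudocount 0.1 gave 1 for the genomic interaction, and equal sums gave 1 for spliced against control GM. edgeR called 11 and 1 for spliced against genomic DM3 and GM, 1 for the genomic interaction and 1 for the spliced against genomic interaction. DESeq2 called 12 for spliced against genomic DM3, 3 for the spliced interaction and 2 for spliced against genomic. With the replicate block, counts were 8 and 10 for spliced against control and genomic DM3, 5 for spliced against genomic GM, 5 for the spliced interaction and 3 for spliced against genomic (0 in the report); it moved no other count by over 1.5 times.

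Leaving out 1 library gave 2 to 19 for genomic against control DM3, 1 to 2 for genomic against control GM, 2 to 23 for spliced against control DM3, 1 to 24 for spliced against control GM, 2 to 12 for spliced against genomic DM3, 0 to 16 for spliced against genomic GM, 0 to 5 for the spliced interaction, 1 to 2 for the genomic interaction and 0 to 2 for spliced against genomic. Counts moved by over 1.5 times without control DM3 replicate 1, 2 or 3, genomic DM3 replicate 2 or spliced DM3 replicate 3 (DM3 comparisons with control), genomic DM3 replicate 2 or spliced DM3 replicate 2 or 3 (spliced against genomic DM3), control GM replicate 2 or 3 or spliced GM replicate 2 (spliced against control GM), or any single GM library of the spliced or genomic line (spliced against genomic GM). The spliced interaction kept 1 call only without control GM replicate 1 or 2 or spliced GM replicate 3, and the genomic interaction lost 1 when any one of its own 12 libraries was left out. The counts of 19, 23, 24 and 16 were reached without spliced DM3 replicate 1; for comparisons that do not use it, this omission was chosen after seeing the data. Median residual levels ran from 10.8% to 14.8% in control, 11.9% to 30.8% in spliced and 10.8% to 12.2% in genomic cells. The other causes of these shifts were not tested.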
